A study of Sus scrofa with 6 samples.

Results

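The MAP kinase, protein kinase and phosphatase families were followed among the regions whose DNA methylation signal differed between 2 skeletal muscles of the pig, *psoas major* (PMM) and *longissimus dorsi* (LDM). A gene was taken by its symbol: those beginning with MAPK, MAP2K, MAP3K, MAP4K, RPS6K, DUSP, PTPR, PTPN, PPP1R, PPP2R, PPP3, PRKA, PRKC or PRKG, and CAMK, CDK, STK or NEK followed by a digit. It also needed at least 1 differentially methylated region (DMR) in its promoter, an exon or an intron. This gave 88 genes with 170 DMRs, out of 3511 such genes and 15633 DMRs in all. No *PPP3* gene (calcineurin) met the rule, and *NEK2* and *PTPRR* were left out because their only DMR lay downstream of the gene. The rule goes by symbol alone, so it also took *MAPKAP1* (SIN1, a subunit of the mTORC2 kinase complex), *MAPK8IP3* (JIP3, a scaffold of the JNK pathway) and *CDK5RAP2* (a centrosome protein), which are neither kinases nor phosphatases.

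Protein kinases add phosphate to other proteins and phosphatases take it off, and many kinases work in tiers, each activating the next, as MAP3K, MAP2K and MAPK do in the cascades that answer to growth factors and stress. In skeletal muscle, calcium-dependent kinases, AMP-activated kinase (AMPK), protein kinase A and p38 link contraction, energy state and hormones to metabolism and to the fibre programme. Methylation of CpGs in a promoter is generally associated with low transcription, whereas methylation inside a gene is common in transcribed genes. For these muscles, the study reported negative correlations with gene expression for methylation in both promoters and gene bodies.

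All samples were muscle DNA of female Landrace pigs slaughtered at 210 days of age, with 3 libraries from PMM, the red and mostly oxidative muscle of the loin, and 3 libraries from LDM, the white and mostly glycolytic muscle of the back. The pigs had no treatment and were fed a standard diet until the day before slaughter. The study describes the muscles as coming from the same 3 pigs, but no label says which libraries share a pig. In methylated DNA immunoprecipitation sequencing (MeDIP-seq), an antibody against methylated cytosine pulls down sonicated DNA, so the read depth at a CpG reflects both how methylated it is and how many methylated CpGs surround it. Each value below is the scaled mean read depth per CpG of a DMR in a library, in the units of the deposited table. The median depth over all 15633 DMRs was between 23.8 and 25.4 in the PMM libraries and between 26.2 and 28.0 in the LDM libraries. The mean depth went the other way, between 43.4 and 44.3 in PMM and between 36.4 and 38.4 in LDM. Before scaling, the shallowest library had 0.825 times the depth of the deepest. The replicates are separate libraries, and the p-values measure the spread between them.

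The authors had chosen all these DMRs because the same 6 libraries differed there. A test of a DMR therefore measures only how large its difference is against the spread between libraries, and 99.9% of all listed DMRs passed it. All 170 DMRs of the kinase and phosphatase genes passed as well (limma, adjusted p between 0.00026 and 0.013), and the PMM and LDM libraries did not overlap in any of them, as in 100% of the listed DMRs. Neither count says anything particular about these genes. Exact permutation of 3 against 3 libraries cannot give a p below 0.1 for a single DMR. Muscle tissue also holds vessels, fat, nerve and immune cells, and a different cell makeup and a different methylation within a cell type cannot be told apart in these data. The table holds no expression, so the muscles could not be checked against expressed markers.

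Read depth was higher in PMM in 103 of the 170 DMRs and lower in PMM in 67, or 60.6% higher, against 56.0% of all listed DMRs and 57.0% of the promoter and gene body DMRs of other named genes. Of all listed DMRs, 55.9% were called higher in PMM and 44% were called lower. The median difference, PMM minus LDM on the log2(depth + 1) scale, was 0.66 with a median SE of 0.17, and the differences ran from -2.56 to 2.68. Over all listed DMRs the median was 0.56. Gains and losses were of unequal size: the median DMR that was higher in PMM differed 1.78-fold and the median DMR that was lower differed 2.63-fold, close to the 1.80-fold and 2.61-fold of all listed DMRs. More than 4-fold falls were found in 8 DMRs (4.96% of all listed DMRs fell by as much) and a more than 4-fold rise in 1 (0.23%). Direction varied with the density of CpGs in the region, and with that trend subtracted 88 of the 170 DMRs still passed in the same direction. Values and folds below are without the subtraction unless stated.

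The DMRs were short, with a median of 139.5 bp (17 to 951 bp) and 6 CpGs, and lay on 19 chromosomes. By the mean of their DMRs, 47 genes lay higher in PMM and 41 lower. Of the 48 genes with a single DMR, 29 were higher and 19 were lower. Of the 40 with more, 11 had only higher DMRs, 7 had only lower DMRs and 22 had both.

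**Figure D1:**
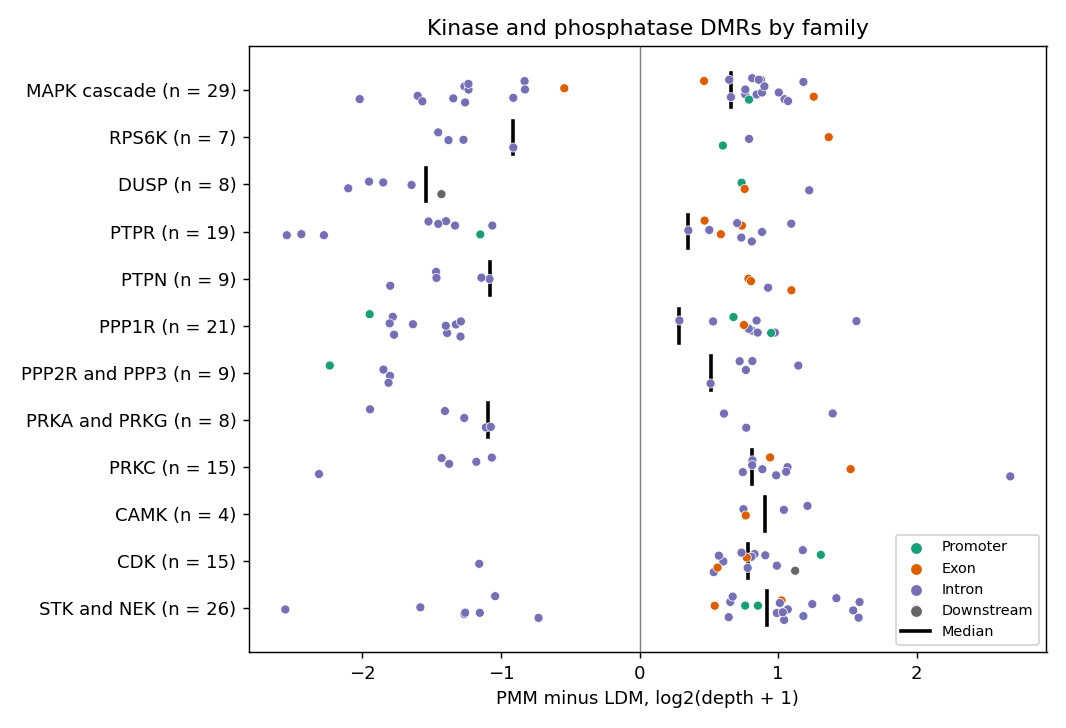
Difference in read depth of each of the 170 DMRs, PMM minus LDM on the log2(depth + 1) scale, by gene family; each point is a DMR coloured by the element it lies in, and the black bar is the median of the family. Points to the right of 0 are higher in PMM (103) and points to the left are lower (67); the CDK family has 14 of 15 to the right and the DUSP family 5 of 8 to the left.

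The MAP kinase cascade itself supplied 17 genes and 29 DMRs, 17 higher in PMM and 12 lower, with a median difference of 0.66. All tiers were represented. The steepest fall was in an intron of *MAP3K14* (NIK, the kinase that starts the non-canonical NF-kB pathway; chr12:18417576-18417777), with 7.27, 2.22 and 3.97 in the PMM libraries and 16.7, 25.2 and 18.0 in the LDM libraries. That was 4.06-fold lower in PMM (log2 difference -2.02, SE 0.35, adjusted p = 0.00042), and the highest PMM library stayed below every LDM library by a wide margin. The first intron of *MAP3K15* (ASK3, an osmotic stress kinase) had 32.3, 13.4 and 17.7 in PMM, against 73.7, 52.9 and 61.1 in LDM, a 3.03-fold fall. In the opposite direction, an exon of *MAP3K1* (MEKK1, upstream of JNK and ERK) had 17.4, 22.1 and 24.5 in PMM and 11.0, 7.88 and 6.47 in LDM, 2.39-fold higher in PMM.

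The 3 genes of the c-Jun N-terminal kinases (JNK) did not move together. In *MAPK8* (JNK1), a pair of DMRs only 2 bp apart in the first intron was lower in PMM, by 2.54-fold and 2.35-fold. The single intron DMR of *MAPK9* (JNK2) was also lower, by 1.77-fold. Both intron DMRs of *MAPK10* (JNK3, best known from the nervous system) were higher in PMM, by 1.76-fold and 2.07-fold. With the density trend subtracted, only the second DMR of *MAPK8* still passed (log2 difference -1.71), and *MAPK9* (0.26) and both DMRs of *MAPK10* (0.01 and 0.21) did not, so the contrast among the JNK genes was not kept. *MAP2K4*, which activates JNK and p38, had DMRs of both kinds 1491 bp apart in an intron. The first was 2.40-fold lower and the second 1.80-fold higher in PMM, but neither passed with the density trend subtracted (log2 differences -0.24 and 0.15). *MAPK14* (p38 alpha) was 1.70-fold higher in an intron. *MAPK4*, an atypical MAP kinase, had 3 DMRs, all lower in PMM, among them the only exon DMR of the 88 genes that was lower.

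*MAP3K4* (MEKK4, upstream of p38 and JNK) held the largest region of all 170 by number of CpGs, 29 over 738 bp in a first intron (chr1:8507526-8508263). Depth there was 184, 181 and 185 in PMM, against 116, 121 and 114 in LDM. The groups lay far apart and the libraries of each muscle were close together (1.57-fold higher in PMM, log2 difference 0.65, SE 0.06, adjusted p = 0.00026). With the density trend subtracted, the difference was 0.0089 and no longer passed (limma, adjusted p = 0.94). Its 3 other DMRs comprised a promoter DMR and an intron DMR that were higher in PMM and an intron DMR that was 2.35-fold lower. The first DMR is assigned to other transcripts than the rest, under the same symbol, and lies about 187 kb from the second. *MAPKAP1* had 4 DMRs in its first intron. The first was 2.39-fold lower in PMM, and the others, about 102 kb further on, were 2.01-fold to 2.27-fold higher.

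The ribosomal S6 kinases, which act below ERK or mTOR, supplied 3 genes and 7 DMRs, 3 higher and 4 lower in PMM. *RPS6KB1* (S6K1, the main growth-related S6 kinase downstream of mTORC1) had a single intron DMR of 17 CpGs with 29.7, 20.3 and 26.3 in PMM and 48.9, 46.2 and 49.4 in LDM. It was 1.88-fold lower in PMM, with a clear gap between the muscles. The region was dense in CpGs (8.33 per 100 bp), and with the density trend subtracted the difference changed sign and did not pass. *RPS6KA2* (RSK3) had a DMR 1.73-fold higher and DMRs 2.60-fold and 2.74-fold lower along its introns. In *RPS6KC1*, the promoter DMR and an exon DMR were higher in PMM (1.52-fold and 2.58-fold), and a first-intron DMR assigned to another transcript was 2.41-fold lower.

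The dual-specificity phosphatases, only some of which switch MAP kinases off, had 4 genes and 8 DMRs, 3 higher and 5 lower in PMM. They had the lowest median difference of the 12 families, at -1.54. These counts and the median include 3 DMRs of *DUSP15* that also lie in other genes, as described below. *DUSP5*, a nuclear phosphatase of ERK, had 1.90, 2.33 and 3.71 in PMM, against 14.0, 11.0 and 13.7 in LDM, in its first intron (chr14:131792406-131792515). This was a 3.87-fold fall (SE 0.28, adjusted p = 0.00028), with every PMM library at 3.71 or below, and it was 2.55-fold with a constant of 4. *DUSP9*, an ERK phosphatase on the X chromosome, was lower both in its first intron (3.61-fold) and just downstream of the gene (2.69-fold). The PMM libraries spread widely in that intron, at 15.5, 3.02 and 7.69, against 28.8, 26.9 and 31.5 in LDM. *DUSP4*, another nuclear MAP kinase phosphatase, went the other way in its promoter (1.67-fold) and in its last exon, where depth was 132, 132 and 156 in PMM and 72.7, 85.7 and 88.7 in LDM.

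*DUSP15* had a 4.30-fold lower DMR with 2.67, 0.465 and 2.91 in PMM, against 10.6, 10.2 and 11.9 in LDM. Another of its DMRs was 3.13-fold lower and the remaining DMR was 2.34-fold higher. The table also places all of these in other genes, the lower ones in *MYLK2* (skeletal muscle myosin light chain kinase) and the higher one in *TPX2* (a spindle protein), so they cannot be assigned to *DUSP15* alone. The size of the 4.30-fold fall depended on the constant added before taking logs: it was 2.52-fold with a constant of 4.

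Receptor-type tyrosine phosphatases, transmembrane enzymes of which many have extracellular adhesion domains, supplied 8 genes and 19 DMRs, 10 higher and 9 lower. *PTPRE* had 9 DMRs, more than any other of the 88 genes, all in introns on chromosome 14 over about 117 kb. The first 4 were all lower in PMM and steep, by 2.88-fold, 5.43-fold, 4.85-fold and 5.84-fold. In the fourth (chr14:149110578-149110659), depth was 3.64, 0 and 4.50 in PMM and 19.3, 12.4 and 17.6 in LDM. The next 3 were higher in PMM, by 1.85-fold, 1.75-fold and 1.28-fold, and the last 2 split, at 2.63-fold lower and 1.42-fold higher. The size of the steepest falls depended on single libraries: without PMM replicate 2 the fold was 3.61 in the second DMR and 3.40 in the fourth, and without PMM replicate 1 it was 8.26 in the second. With a constant of 0.25 or 4 in place of 1, the fold of the fourth was 9.87 or 3.17, and with 4 that of the third was 3.05. All of these stayed lower in PMM.

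The 2 DMRs of *PTPRB* (VE-PTP, a phosphatase of vessel endothelium) both lay in exons and were higher in PMM. The larger, of 18 CpGs over 951 bp, had 80.7, 82.1 and 74.5 in PMM, against 58.2, 50.9 and 48.2 in LDM (1.50-fold). *PTPRJ*, another phosphatase of endothelial and blood cells, had an exon DMR of 23 CpGs that was 1.38-fold higher, with 143, 128 and 139.9 in PMM and 98.9, 102 and 94.6 in LDM. *PTPRT* was lower in 2 intron DMRs (2.09-fold in 1 of 16 CpGs, and 2.74-fold) and 2.14-fold higher in its first intron.

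The cytosolic tyrosine phosphatases gave 6 genes and 9 DMRs, 4 higher and 5 lower. *PTPN9* (MEG2, a regulator of secretory vesicles) had 4.01, 7.34 and 8.63 in PMM, against 28.5, 20.6 and 25.6 in LDM, in its first intron, a 3.48-fold fall. *PTPN18* and *PTPN5* (STEP, a brain-enriched phosphatase) were 2.77-fold and 2.76-fold lower. The rises lay in exons or in a long intron region: *PTPN4* was 2.14-fold higher in an exon, *PTPN21* 1.75-fold higher in an exon, and *PTPN13* 1.72-fold higher in an exon and 1.90-fold higher in an intron DMR of 20 CpGs. *PTPN13* changed direction over a short distance, since a DMR that was 2.12-fold lower began 859 bp after the end of that 20-CpG region.

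The regulatory subunits of protein phosphatase 1, which direct the enzyme to its substrates, supplied 13 genes and 21 DMRs, 11 higher and 10 lower. *PPP1R36* showed the largest rise of the family, with 48.5, 52.3 and 61.4 in PMM and 20.9, 17.0 and 15.1 in LDM (2.96-fold, SE 0.16). *PPP1R3F*, a glycogen-targeting subunit, had a 3.49-fold lower DMR in its last intron and a 1.73-fold higher one in its first. *PPP1R12B* (MYPT2, the myosin phosphatase subunit of heart and skeletal muscle) had a DMR 3.44-fold lower, with 16.7, 10.2 and 4.39 in PMM and 36.4, 35.6 and 30.7 in LDM. Another of its DMRs was 2.62-fold lower, and 1170 bp from it lay 1 that was 1.97-fold higher. *PPP1R1A*, an inhibitor of the phosphatase that is activated by protein kinase A, was 2.45-fold lower in its last intron. In *PPP1R16B* (TIMAP), 3 DMRs were higher and 1 was 2.51-fold lower. The first of these, 65.0, 59.3 and 61.3 in PMM against 48.0, 52.7 and 50.9 in LDM, was the smallest difference of all 170 (1.22-fold, adjusted p = 0.013), and it did not pass without PMM replicate 1 (1.19-fold, adjusted p = 0.054).

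The subunits of protein phosphatase 2A gave 6 genes and 9 DMRs, 5 higher and 4 lower. A DMR in the first intron of *PPP2R1A*, the main scaffold subunit, was 3.60-fold lower, with 33.0, 10.8 and 11.4 in PMM and 67.9, 52.1 and 62.6 in LDM. *PPP2R5C*, a B56 regulatory subunit, was lower in both its DMRs, by 3.49-fold and 3.51-fold. *PPP2R2B*, a B55 subunit, was higher in both, at 2.21-fold and 1.76-fold. For the stronger of these, depth was 55.9, 59.3 and 65.3 in PMM and 26.7, 27.8 and 25.3 in LDM, with little spread in either muscle.

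Among cyclic nucleotide-dependent kinases and AMPK, 5 genes had 8 DMRs, 3 higher and 5 lower. *PRKAR1B*, a regulatory subunit of protein kinase A, was lower in both DMRs, and in its first intron depth was 24.0, 7.95 and 8.83 in PMM, against 52.0, 41.3 and 55.2 in LDM (3.85-fold). The AMPK gamma subunits, which sense AMP, differed from each other. Their DMRs also differed in CpG density, with which direction varied: the median was 3.45 CpGs per 100 bp in *PRKAG2* and 8.93 in *PRKAG1*. *PRKAG2* was higher in PMM in both intron DMRs, 1.53-fold and 2.63-fold, with 10.1, 11.4 and 11.3 in PMM and 2.67, 4.32 and 3.77 in LDM in the stronger of them. *PRKAG1* was 2.16-fold lower in a single intron DMR, which the table also places in *TUBA1A*, a tubulin gene. *PRKG1*, the cyclic GMP-dependent kinase of smooth muscle, was 2.10-fold lower, and *PRKG2* had a DMR 2.65-fold lower and another 1.71-fold higher.

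Protein kinase C isoforms, which respond to diacylglycerol and in part to calcium, gave 6 genes and 15 DMRs, 10 higher and 5 lower. *PRKCA*, a conventional isoform, carried the largest rise of all 170 in an intron (chr12:13564369-13564465), with 7.47, 13.4 and 12.5 in PMM, against 1.17, 1.90 and 0 in LDM. This was a 6.39-fold rise (log2 difference 2.68, SE 0.44, adjusted p = 0.00038). Because the LDM libraries were nearly empty there, the fold was 12.1 with a constant of 0.25 and 3.0 with a constant of 4. Of the 4 other DMRs of *PRKCA*, 3 were 1.76-fold to 1.92-fold higher and 1 was 2.69-fold lower.

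*PRKCQ* (PKC theta, the isoform best known from T cells and also abundant in skeletal muscle) had 4 DMRs. An exon DMR was 2.88-fold higher, with 22.2, 31.8 and 24.4 in PMM and 10.0, 9.67 and 5.93 in LDM. The first-intron DMRs comprised 2 that were 1.68-fold and 1.76-fold higher and 1 that was 2.09-fold lower. The atypical isoform *PRKCZ* was lower in both DMRs. In the stronger, at 14.3, 2.33 and 3.95 in PMM and 28.0, 29.4 and 34.1 in LDM, the fall was 4.97-fold, and 7.74-fold without PMM replicate 1. *PRKCE* and *PRKCH*, isoforms that do not need calcium, were higher in all 3 of their DMRs (1.98-fold to 2.10-fold).

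All 4 DMRs of the calcium/calmodulin-dependent kinases were higher in PMM. *CAMK2D*, the CaMKII isoform that predominates in heart, had 3. In an intron, depth was 46.5, 45.6 and 50.7 in PMM and 26.8, 18.0 and 16.4 in LDM (2.32-fold), and in an exon it was 174, 186 and 178 in PMM and 118, 97.5 and 101 in LDM (1.70-fold). With the density trend subtracted, that intron DMR no longer passed (log2 difference 0.43), and the other 3 of the 4 did. *CAMK1G* was 2.06-fold higher, with 26.7, 24.4 and 28.9 in PMM, against 12.0, 14.7 and 10.8 in LDM.

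The CDK group had 5 genes and 15 DMRs, 14 of them higher in PMM. Of these 15, 9 belonged to the CpG-poorest density class, where most DMRs of any gene were higher. With the density trend subtracted, 2 of the 15 still passed in the same direction and 8 turned to the other sign. *CDK5RAP2* alone had 8, with 7 higher by 1.71-fold to 2.48-fold, within about 125 kb, and 1 lower by 2.23-fold, about 245 kb before the others and in another transcript. *CDK8*, a kinase of the Mediator complex, had 3 higher DMRs, among them an exon region of 24 CpGs with 54.8, 59.6 and 65.0 in PMM and 41.3, 37.7 and 41.2 in LDM (1.48-fold). *CDK13*, *CDK14* and *CDK16* were 1.45-fold to 1.78-fold higher, and *CDK14* (-0.22), *CDK16* (-0.06) and the second DMR of *CDK13* (-0.07) were among those that turned.

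The STK and NEK kinases supplied 13 genes and 26 DMRs, 19 higher and 7 lower, with the highest median difference of the 12 families at 0.92. *NEK7*, a mitotic kinase that is also needed by the NLRP3 inflammasome, had 7 intron DMRs within about 71 kb, all higher in PMM by 1.56-fold to 3.98-fold. In the steepest (chr10:25672084-25672944), depth was 20.1, 24.1 and 29.8 in PMM, against 5.21, 8.29 and 3.47 in LDM. In the first it was 36.1, 32.0 and 38.5 in PMM and 10.2, 16.4 and 8.21 in LDM. In the fifth it was 24.6, 36.6 and 36.4 in PMM and 11.7, 11.8 and 7.09 in LDM. No other gene among the 88 had as many DMRs in 1 direction without an exception.

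*STK17A* (DRAK1, a kinase linked to apoptosis) was lower in both DMRs. Its second lay in a CpG island within an intron (chr18:56231420-56231506) and had the steepest fall of all 170, with 8.79, 2.76 and 17.7 in PMM, against 50.0, 55.1 and 48.0 in LDM (5.89-fold, SE 0.47, adjusted p = 0.00054). Without PMM replicate 2, the library with the lowest depth there, it was 3.84-fold. The only other DMR in a CpG island, in *STK33*, was also lower, by 2.39-fold. *STK3* (MST2, of the Hippo pathway) was higher in both DMRs, by 1.59-fold and 1.99-fold. *STK35* was 2.68-fold higher and *STK32B* had 2 lower DMRs with a higher one between them.

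**Figure D2:**
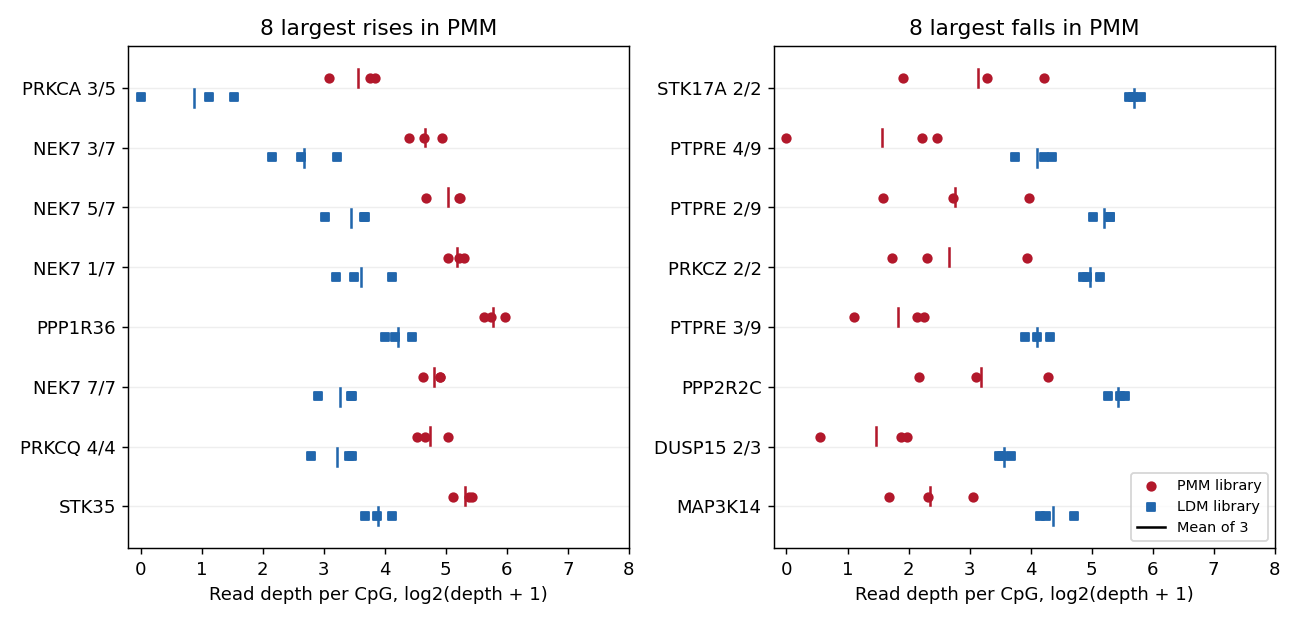
Read depth of every library in the 8 DMRs with the largest rises (left) and the 8 with the largest falls (right) in PMM, on the log2(depth + 1) scale; red circles are the 3 PMM libraries, blue squares the 3 LDM libraries, and vertical bars their means. The libraries of the muscles do not overlap in any row. On this scale, the PMM libraries are more spread than the LDM libraries in falls such as PRKCZ (depths of 2.33 to 14.3 in PMM, 28.0 to 34.1 in LDM). In depth itself this did not hold for every fall, as in MAP3K14 (SD 2.56 in PMM, 4.54 in LDM).

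PMM replicate 1 tended to lie nearest to LDM. Among the 67 lower DMRs it was the highest PMM library in 42 (62.7%), and among the 103 higher DMRs it was the lowest PMM library in 68 (66.0%). The same held over all other listed DMRs, at 65.5% and 58.8%, so it was not particular to these genes, and its cause was not tested.

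Promoter DMRs were found in 11 genes, 8 higher and 3 lower in PMM, against 52.5% higher among 413 promoter DMRs of other named genes. All 5 in promoters annotated as rich in CpGs were higher. No share by promoter class was computed for other genes, and the counts by class were not tested. *DUSP4* had 67.3, 74.2 and 74.6 in PMM and 48.5, 39.5 and 40.8 in LDM. *PPP1R15A* (GADD34, which returns protein synthesis after stress) had 50.7, 52.1 and 51.1 in PMM and 31.4, 30.7 and 33.0 in LDM, in a region that the table also places in *PLEKHA4*. *STK25*, known in mice for its part in lipid and glucose handling in muscle and liver, had 88.9, 83.7 and 81.7 in PMM and 49.0, 49.1 and 50.5 in LDM. The groups were tight and well apart in all of these, with folds of 1.60 to 1.70. The others were *PPP1R9A* (neurabin, 1.93-fold) and *CDK5RAP2* (2.48-fold). The class describes the promoter and not the DMR: these DMRs held only 3.27 and 3.95 CpGs per 100 bp.

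The 4 promoters of intermediate CpG content were higher in *MAP3K4* (1.73-fold), *RPS6KC1* (1.52-fold) and *STK36* (a regulator of cilia and Hedgehog signalling; 1.81-fold), and lower in *PPP2R2C*. That gene, a B55 subunit best known from brain, had the deepest promoter loss (chr8:2890932-2891113), at 18.5, 3.49 and 7.65 in PMM, against 45.8, 37.5 and 42.9 in LDM (4.71-fold, SE 0.43, adjusted p = 0.00072). Both CpG-poor promoters were lower in PMM, again a count that was not tested. *PPP1R16A* (MYPT3) had 1.97, 2.18 and 2.99 in PMM and 13.5, 10.4 and 12.1 in LDM (3.86-fold, or 2.51-fold with a constant of 4). *PTPRC*, which encodes CD45 of all nucleated blood cells, had 17.2, 14.2 and 7.28 in PMM and 26.3, 29.2 and 29.1 in LDM (2.22-fold).

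**Figure D3:**
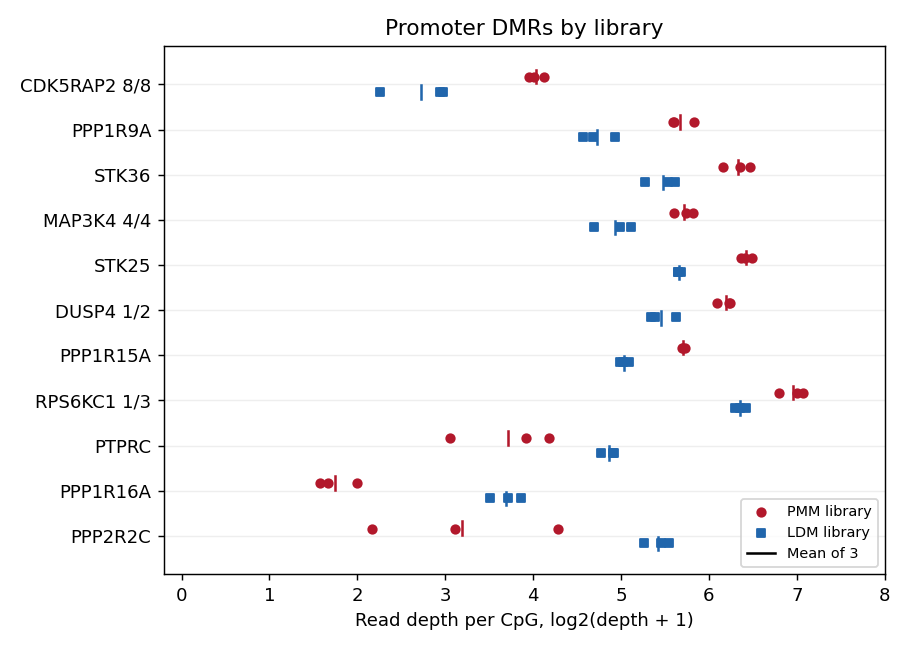
Read depth of every library in the 11 promoter DMRs, on the log2(depth + 1) scale, ordered by the difference between the muscles; red circles are PMM libraries, blue squares LDM libraries and vertical bars the mean of 3. PMM lies to the right of LDM in the upper 8 rows and to the left in PTPRC, PPP1R16A and PPP2R2C, where the PMM libraries reach down to 7.28, 1.97 and 3.49.

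Markers of other cell types were also among the genes with DMRs. Of 13 leukocyte markers, 5 had a DMR (7 DMRs, 2 higher and 5 lower in PMM, with *PTPRC* among them). Of 15 endothelial and vessel markers, 5 had one (10 DMRs, 6 higher and 4 lower). Of 10 adipocyte markers, 2 did (2 higher and 1 lower), of 12 fibroblast markers, 3 did (3 higher and 2 lower, of which 2 and 2 passed the test), and of 11 nerve markers, 1 did (2 lower). How far cell makeup entered the values of the kinase and phosphatase genes was not tested.

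Nearly all exon DMRs were higher in PMM, unlike intron DMRs. Of 19 exon DMRs, 18 were higher in PMM (94.7%), against 68.8% of 651 exon DMRs of other named genes. Of 138 intron DMRs, 76 were higher (55.1%), against 55.7% in other named genes. Exon DMRs were of moderate size and precise, with a median difference of 0.77 and a median SE of 0.12, and the median intron DMR had an SE of 0.19. By density class, 6 of the exon DMRs lay in the sparsest and 9, 3 and 1 in the others, and all were higher except 1 in the sparsest. These shares were not compared by a test.

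Direction varied with the density of CpGs. In 4 classes bounded by 3.69, 5.38 and 7.78 CpGs per 100 bp (the quartiles of all listed DMRs), 45 of 47, 35 of 46, 15 of 42 and 8 of 35 kinase and phosphatase DMRs were higher in PMM. The shares were 95.7% (exact 95% interval 85.5% to 99.5%), 76.1%, 35.7% and 22.9% (10.4% to 40.1%), and those of all other listed DMRs were 93.9%, 76.1%, 37.1% and 16.7%. These intervals cover counting error only and treat DMRs as independent. In each class, the share of all other listed DMRs lay within the interval of the kinase and phosphatase DMRs, and the difference between them was not tested. In the sparsest class, the median depth of the DMRs averaged 45.3 ± 1.49 in PMM and 23.8 ± 2.12 in LDM. In the densest class it averaged 11.8 ± 1.63 in PMM and 26.5 ± 1.78 in LDM (SD, n = 3 libraries each). Only *DUSP9* and *MAPK4* were lower in the sparsest class. The 8 higher DMRs of the densest class lay in *MAP4K4*, *PPP1R12B*, *PPP1R15A*, *PPP1R16B*, *PPP1R3F*, *PRKCQ*, *STK25* and *STK3*, with folds of 1.38 to 1.99.

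**Figure D4:**
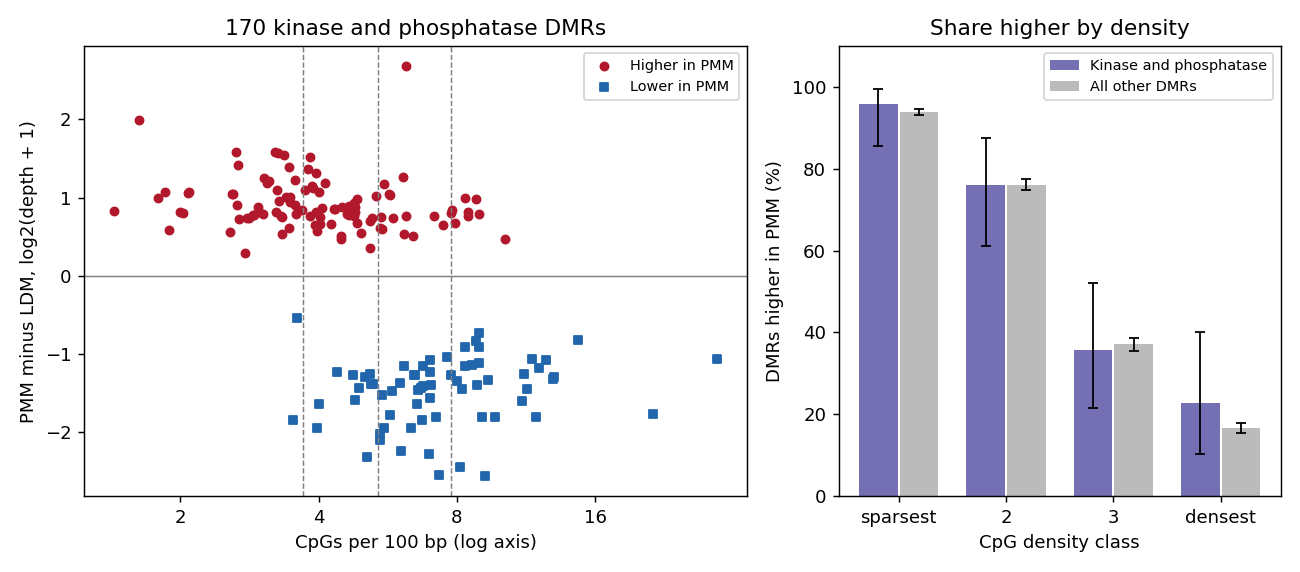
Left, difference in read depth (PMM minus LDM, log2(depth + 1)) of the 170 DMRs against their CpGs per 100 bp on a log axis, with the quartiles of all listed DMRs as dashed lines. Right, share of DMRs higher in PMM in each density class for the kinase and phosphatase genes and for all other listed DMRs, with exact 95% intervals; the shares of the kinase and phosphatase genes fall from 95.7% in the sparsest class to 22.9% in the densest.

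The trend with density was subtracted from every library to see which differences went beyond it. Of the 170 DMRs, 88 (51.8%) still passed in the same direction, 49 higher and 39 lower, against 47.4% of all listed DMRs. Another 59 kept their sign without passing, 22 changed sign without passing, and 1, the first DMR of *PPP1R16B*, passed in the other direction. By family, the DMRs that passed in the same direction were 7 of 8 for DUSP, 14 of 21 for PPP1R, 17 of 26 for STK and NEK, 10 of 29 for the MAP kinase cascade and 2 of 15 for CDK. Among promoters, *DUSP4*, *STK25*, *PPP1R15A*, *RPS6KC1*, *STK36*, *PPP1R16A* and *PPP2R2C* passed in the same direction. The promoters of *CDK5RAP2*, *MAP3K4*, *PPP1R9A* and *PTPRC* did not. In *NEK7*, 5 of 7 DMRs passed, and in *PTPRE*, the first 4 and 3 of the other 5 did.

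**Figure D5:**
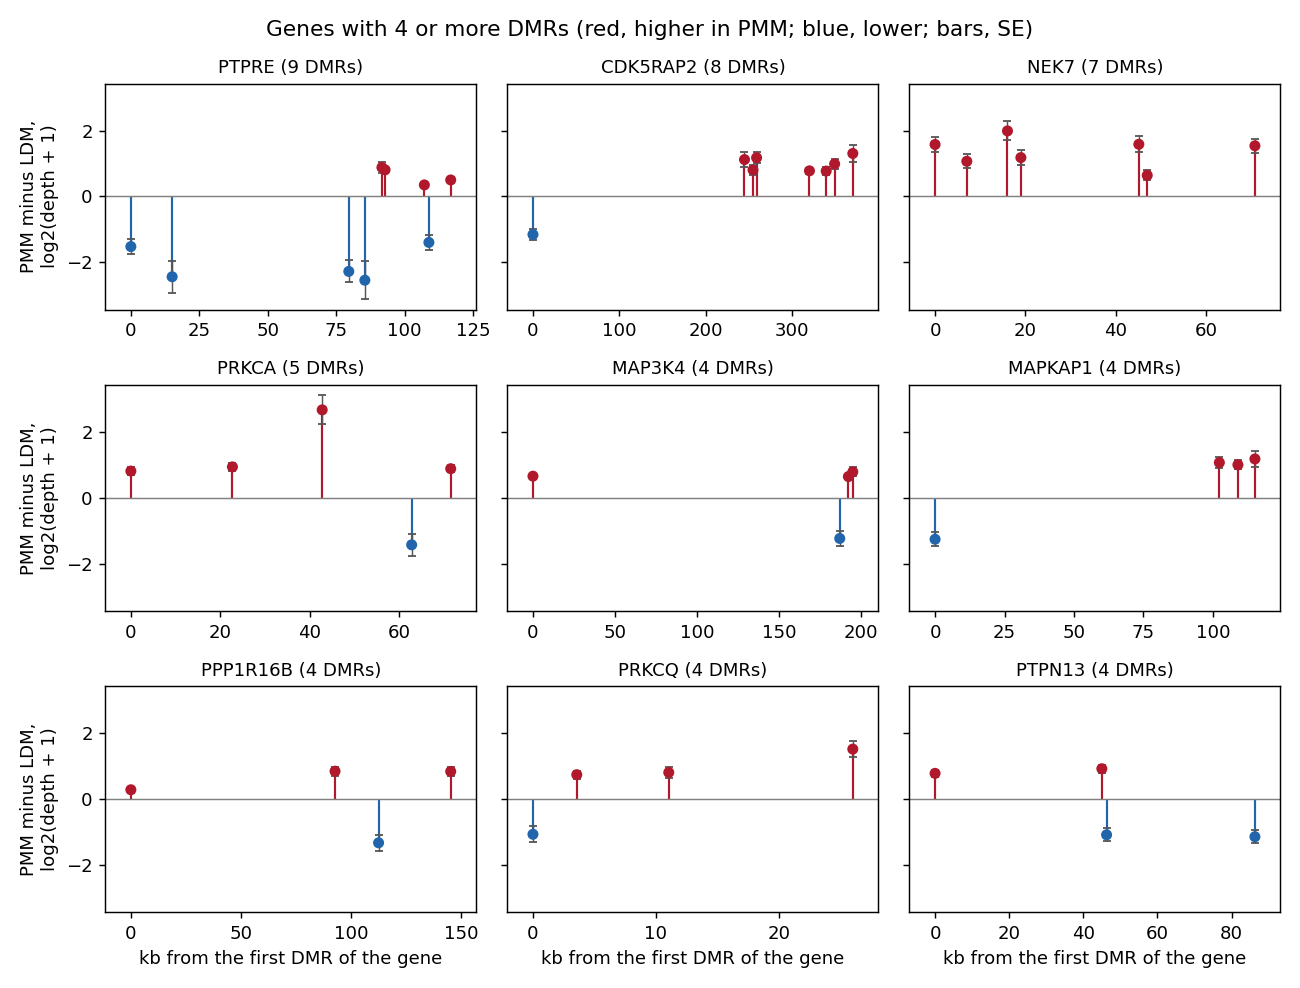
Difference in read depth (PMM minus LDM, log2(depth + 1)) along the 9 genes with 4 or more DMRs, against the distance in kb from the first DMR of the gene; error bars are the SE from limma. All 7 DMRs of NEK7 are above 0, PTPRE turns from 4 falls to a mixture of rises and falls, and CDK5RAP2 has 1 fall about 245 kb before 7 rises.

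Within genes, neighbouring DMRs were compared in 82 pairs, of which 53 had the same direction and 29 opposite directions. No such share was computed for other genes, so these counts are not particular to the kinase and phosphatase genes. Pairs in different transcripts of the same symbol were included, as in *MAP3K4* and *CDK5RAP2*. By distance, 6 of 10 pairs under 2 kb apart had the same direction, as did 25 of 38 pairs at 2 to 20 kb and 22 of 34 pairs further apart, counts that were not compared by a test. The 4 close pairs of opposite direction lay in *MAP2K4*, *PPP1R12B*, *PTPN13* and *PTPRE*, and in each of them except *PPP1R12B* the region that was lower in PMM was the one denser in CpGs.

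Genes of the same pathways outside the symbol rule were examined in 5 lists. Of 55 MAP kinase pathway genes, 7 had a DMR, with 6 higher and 4 lower DMRs. All of these passed the test, as did 99.9% of all listed DMRs. *SOS2*, an exchange factor that activates RAS, was lower, with 24.7, 27.4 and 26.4 in PMM and 68.2, 56.8 and 70.3 in LDM. *SPRY1*, an inhibitor of receptor signalling to ERK, was higher, with 17.8, 20.4 and 18.3 in PMM and 7.0, 10.7 and 8.01 in LDM. Their DMRs also differed in CpG density, with which direction varied: 10.4 CpGs per 100 bp in *SOS2* and 3.89 in *SPRY1*. Of 72 genes of cyclic AMP, calcium and lipid messengers, 33 had 56 DMRs, 32 higher and 24 lower. *CREB5*, a cyclic AMP-responsive factor, had 4 higher DMRs and 1 lower, and both DMRs of *HDAC4*, a CaMK-regulated repressor of MEF2, were lower.

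Of 43 catalytic phosphatase and PP2C genes, 15 had 21 DMRs, 9 higher and 12 lower. *PPP2CA*, the catalytic subunit of protein phosphatase 2A, had 3.08, 3.07 and 6.24 in PMM and 11.8, 14.0 and 13.9 in LDM. Of 45 cyclins, CDK inhibitors and CDK targets, 9 had 14 DMRs, 6 higher and 8 lower. In the CDK group, 14 of 15 were higher, but 8 of those 15 belonged to *CDK5RAP2*, which is not a kinase. The DMRs of the CDK group also had a lower median CpG density than those of this list, and direction varied with density. The difference between the list and the group was not tested. Of 30 AMPK regulators and targets, 11 had 25 DMRs, 16 higher and 9 lower. All 4 DMRs of *CPT1A*, which admits fatty acids to the mitochondrion, were lower, including its promoter at 11.2, 6.59 and 11.3 in PMM and 24.0, 20.4 and 19.5 in LDM. All 3 of *ACACA*, the acetyl-CoA carboxylase that AMPK inhibits, were higher.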

How the data were processed

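The authors aligned MeDIP-seq reads to Sscrofa10.2 with SOAP2, kept multiply mapped reads once, dropped thinly covered CpGs and joined CpGs that differed between the muscles into DMRs of at least 5 CpGs. The deposited values are a coverage signal, the mean read depth per CpG of each DMR, which the authors multiplied by 1 factor per library. Library totals are not in the table. Its p-value, false discovery rate and mean columns were not used, and unlisted regions were not analysed here. Positions are 1-based on Sscrofa10.2. No sequences are shown.

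For each DMR, log2(depth + 1) was fitted by limma (version 3.58.1, under R 4.3.3) with a variance trend and muscle as the only term, unpaired, on all 15633 DMRs with Benjamini-Hochberg adjustment at 0.05. The fit was also run on simulated libraries with known differences. These held neither the selection of DMRs on the same libraries nor the trend of direction with density, so neither was tested by them. Folds are on the log2(depth + 1) scale and understate changes at low depth. The human symbol, or else the pig symbol, named a gene. DMRs are numbered along the chromosome, and those in several elements were placed in the first of promoter, exon, intron and downstream. Density was subtracted with a lowess curve of span 0.3. Members and gene lists were chosen with earlier results of these data known. The DMRs named by rule were all those in promoters or CpG islands, of 15 or more CpGs or in genes with 4 or more DMRs, and the 2 largest rises and falls in exons and introns of each family; others were picked after their values were seen. Alternatives changed the constant, depth filter, scaling, model, density trend, replicate block and libraries. The values of 1 member gene are not reported here.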

Additional observations from a re-analysis of the deposited data

How the results depend on the processing

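The 103 higher and 67 lower DMRs were the same in number with constants of 0.25 or 4, with a minimum mean depth of 10, with equal library medians, and in models without a variance trend or without moderation. Equal medians shifted the median difference of all DMRs by 0.15 and undoing the authors' scaling by -0.13. With the scaling undone, *PPP1R16B* (first DMR, 0.16, adjusted p = 0.27) and *PTPRE* (seventh, 0.22, adjusted p = 0.072) no longer passed limma's test, leaving 101 higher. Leaving out each library in turn gave 102 to 103 higher and 67 to 67 lower DMRs, 47 to 49 higher and 39 to 41 lower genes, and shares of 95.7% to 95.7% and 22.9% to 22.9% in the sparsest and densest classes. Without DMRs that lie in another named gene, an alternative chosen after seeing the data, 100 were higher and 64 lower. With the density trend subtracted, 49 passed as higher and 40 as lower. Of the 23 DMRs that changed sign, those named by rule were *CDK5RAP2* DMRs 3, 5 and 6 (-0.0631, -0.0291 and -0.0339), *CDK8* DMR 2 (-0.28), *MAP3K4* DMR 4 (-0.0022), *PPP1R16B* DMR 1 (-0.53), *PRKCQ* DMR 2 (-0.0096), *PTPRB* DMR 2 (-0.29), *PTPRT* DMR 1 (0.0410) and *RPS6KB1* (0.16). The subtraction takes out what all listed DMRs of a density share. Among DMRs of at least 10 CpGs, 100% of 9 were higher in the sparsest class and 0% of 6 in the densest. A replicate block left 103 higher and 67 lower. The numbers pair nothing in the labels, and deviations of same-numbered libraries correlated by 0.04, 0.24 and 0.02, with only PMM replicate 2 correlating best with its own number.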
